A study of Mus musculus with 14 samples.

Results

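The Cyp2d genes encode cytochromes P450 of subfamily 2D, and 8 of them were followed here through post-natal development of mouse liver: Cyp2d9, Cyp2d10, Cyp2d11, Cyp2d12, Cyp2d22, Cyp2d26, Cyp2d34 and Cyp2d40. Members were chosen by name, through the RefSeq accession that the array gives for each probe. They had 9 probes of the 39429 on the array and were 8 of 19751 named genes. Cyp2d34 had a pair of probes and each of the others had 1. Liver RNA came from untreated male and female CD-1 mice, an outbred strain, at 3 ages. The groups are M3, M4 and M8 (male liver at 3, 4 and 8 wk) and F3, F4 and F8 (female liver). Groups were set against each other on 2-colour Agilent whole mouse genome arrays, in which RNA of one group carries a red dye and RNA of the other a green dye. There were 7 comparisons with 2 arrays each, on separate pools of RNA and with opposite dyes. The sexes were compared at each age (M3/F3, M4/F4 and M8/F8), and 8 wk was compared with each younger age within a sex (male M8/M3 and M8/M4, female F8/F3 and F8/F4). Pools were of 5 mice at 3 wk and of 6 mice at the later ages, so the spread between single mice was not measured, and p-values measure the spread between pools and arrays. Whole liver was used, in which fewer cells of a type and less RNA per cell cannot be told apart.

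Cytochromes P450 are haem enzymes of the endoplasmic reticulum that insert oxygen into drugs, steroids and other lipophilic substrates, with electrons passed on by cytochrome P450 reductase (the product of Por) or cytochrome b5. The only functional 2D gene of humans, CYP2D6, oxidizes a large share of prescribed drugs, whereas rodents carry a cluster of duplicated Cyp2d genes. Cyp2d9, a testosterone 16 alpha-hydroxylase, is a long-studied male-specific gene of mouse liver, whose expression depends on the male pattern of growth hormone secretion and on STAT5b. Cyp2d22 is the mouse gene usually set against human CYP2D6. HNF4A, a nuclear receptor of hepatocytes, is a known activator of human CYP2D6.

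In the RefSeq gene table (GRCm38.p6) the 8 members lie side by side on chromosome 15, in the order Cyp2d22, Cyp2d11, Cyp2d10, Cyp2d9, Cyp2d12, Cyp2d34, Cyp2d40 and Cyp2d26. With them lie 10 Cyp2d pseudogenes, among which the array had a probe for the transcribed pseudogene Cyp2d13. Promoter windows of 300 bases (250 before the annotated start and 50 after it) were held for 5 members, Cyp2d9, Cyp2d10, Cyp2d11, Cyp2d26 and Cyp2d40. The windows of Cyp2d9 and Cyp2d11 were 94% identical over 284 aligned bases and those of Cyp2d9 and Cyp2d10 84.8% over 296. Cyp2d40 was 78.1% to 81% identical to these 3 over 231 to 237 aligned bases. The proximal stretches below are shown because they set the members with alike windows beside Cyp2d26, and because the same genes differ in their sex ratio at 8 wk. Each is 109 bases of the gene's strand, 5′ to 3′, from RefSeq (GRCm38.p6). Capitals mark the letters CAAAGNNCA, the core of sites of the type bound by HNF4A (DR1 type), and the TATA letters TATAA downstream of them.

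Cyp2d9, chr15:82452287-82452395 (+): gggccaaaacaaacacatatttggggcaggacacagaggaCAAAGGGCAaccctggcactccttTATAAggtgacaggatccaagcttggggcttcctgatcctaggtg
Cyp2d11, chr15:82394019-82394127 (-): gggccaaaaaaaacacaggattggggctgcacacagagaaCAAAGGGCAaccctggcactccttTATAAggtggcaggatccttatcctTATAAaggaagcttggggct
Cyp2d10, chr15:82407179-82407287 (-): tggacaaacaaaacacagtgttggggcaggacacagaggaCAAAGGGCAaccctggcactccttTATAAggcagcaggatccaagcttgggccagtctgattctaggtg
Cyp2d40, chr15:82764167-82764275 (-): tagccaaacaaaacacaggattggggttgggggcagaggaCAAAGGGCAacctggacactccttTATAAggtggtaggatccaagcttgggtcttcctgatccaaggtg
Cyp2d26, chr15:82794235-82794343 (-): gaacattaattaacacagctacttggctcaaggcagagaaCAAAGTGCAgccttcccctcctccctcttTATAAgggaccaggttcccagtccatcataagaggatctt

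Set base against base, the Cyp2d26 stretch was identical to the other four at 38.5% to 42.2% of positions. Positions were counted without gaps, so an inserted or missing base lowers the share for every base after it. Cyp2d9, Cyp2d10 and Cyp2d40 were identical to each other at 80.7% to 86.2%, and Cyp2d11 to these 3 at 66.1% to 69.7%. All 5 windows held the DR1-type letters, which 6.36% of 32851 promoter windows of this length held on either strand, and TATAA, which 24.9% held. The TATA letters began 24 bases after the DR1-type letters in 4 of the genes and 29 bases after them in Cyp2d26. The letters TTCNNNGAA, the form of a STAT5 site, occurred in 0 of the 5 windows and in 8.3% of all windows, and CCAAT in all 5 and in 37.4%. The letters were chosen after the windows had been read, both strands were searched, and the DR1-type letters lay on the gene's strand in each window. Matches to different letters shared a base only in Cyp2d26, where a CCAAT match ran into a TATAA match far upstream. These matches describe the windows only.

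**Figure D1:**
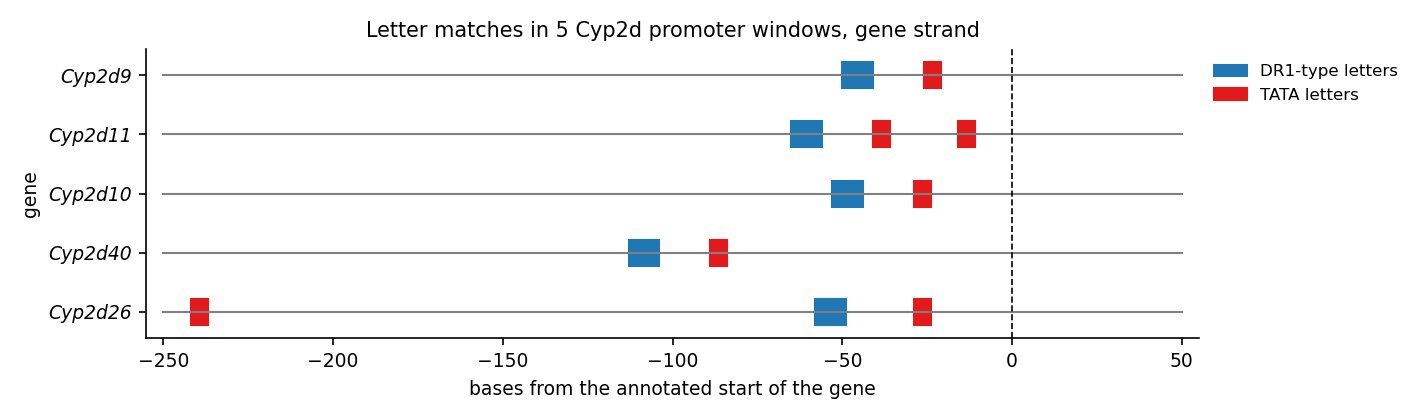
Position of the DR1-type letters (blue) and the TATA letters (red) on the gene's strand in the promoter windows of 5 Cyp2d genes; the x axis is the distance in bases from the annotated start (dashed line). In Cyp2d40 both lie farther from the annotated start, with the DR1-type letters at -113 against -50 in Cyp2d9, at the same spacing of 24 bases.

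All 9 probes were well above background in all 28 channels (14 arrays with 2 dyes). Over the arrays 55.2% to 77.2% of spots were well above background in a channel. Labels were checked with Ddx3y, Eif2s3y and Uty of the Y chromosome, which were higher in male at 8 wk, and Xist, which was lower. The 6 hepatocyte markers (Alb, Ttr, Apoa1, Cps1, Ass1 and Tat) were well above background in every channel of every group. Values are log2 ratios, male over female or 8 wk over the younger age. Each gene is given by its brightest probe, and counts and orders of members refer to these probes. The dimmer Cyp2d34 probe gave other values, which are set out apart. A gene was called where its Benjamini-Hochberg adjusted p in limma was below 0.05 and its ratio exceeded 1.5-fold, with at least 1 of the groups well above background on both arrays. Each group enters several comparisons, and its pools appear to have been used again between them. The labels do not say which arrays share a pool, so the comparisons cannot be taken as independent.

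At 8 wk, 7 of the 8 Cyp2d genes had ratios above 0 on both arrays of M8/F8 and Cyp2d26 had ratios below 0 on both. Cyp2d9, Cyp2d11, Cyp2d12 and Cyp2d40 were called higher in male liver and 0 members were called lower. The 4 of 8 stand against 2.67% of 13525 genes called higher in male liver. Without the fold threshold 7 members passed the adjusted p in the male direction, against 10.3% of genes. The median log2 ratio was 0.61 for the members and 0.00 for all genes tested.

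Cyp2d9, the testosterone hydroxylase, had M8/F8 log2 ratios of 2.03 and 2.51. Both arrays showed male liver far above female liver. The ratio was 4.83-fold (log2 2.27 ± 0.34, SD, n = 2, with SE 0.22, adjusted p = 0.00117). Cyp2d40 had ratios of 0.86 and 0.79, which made 1.77-fold (SE 0.12, adjusted p = 0.00499). Cyp2d12 had 0.70 and 0.87, which made 1.72-fold (SE 0.11, adjusted p = 0.00406). Cyp2d11 had 0.76 and 0.61, or 1.61-fold (SE 0.07, adjusted p = 0.00124). These 3 lay close together and well under Cyp2d9. The call of Cyp2d40 was lost without replicate 2 of M8/F8 (log2 0.74, adjusted p = 0.0530).

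Cyp2d22, the gene set against human CYP2D6, had M8/F8 log2 ratios of 0.47 and 0.61. Its ratio of 1.46-fold passed the adjusted p (0.0161) and fell just short of the fold threshold. It was past the threshold without replicate 1 of M8/F8 (log2 0.75, adjusted p = 0.0141), and without replicate 2 the ratio came to log2 0.34 and did not pass the adjusted p (0.147). Cyp2d10 had 0.12 and 0.36, a ratio of 1.18-fold (adjusted p = 0.0145), and the brighter Cyp2d34 probe had 0.32 and 0.07, a ratio of 1.14-fold (adjusted p = 0.0255). Both were higher in male liver by a small amount. Cyp2d26 had -0.11 and -0.28, the opposite direction, and did not pass the test (log2 -0.20, 95% interval -0.39 to 0.00, adjusted p = 0.186).

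**Figure D2:**
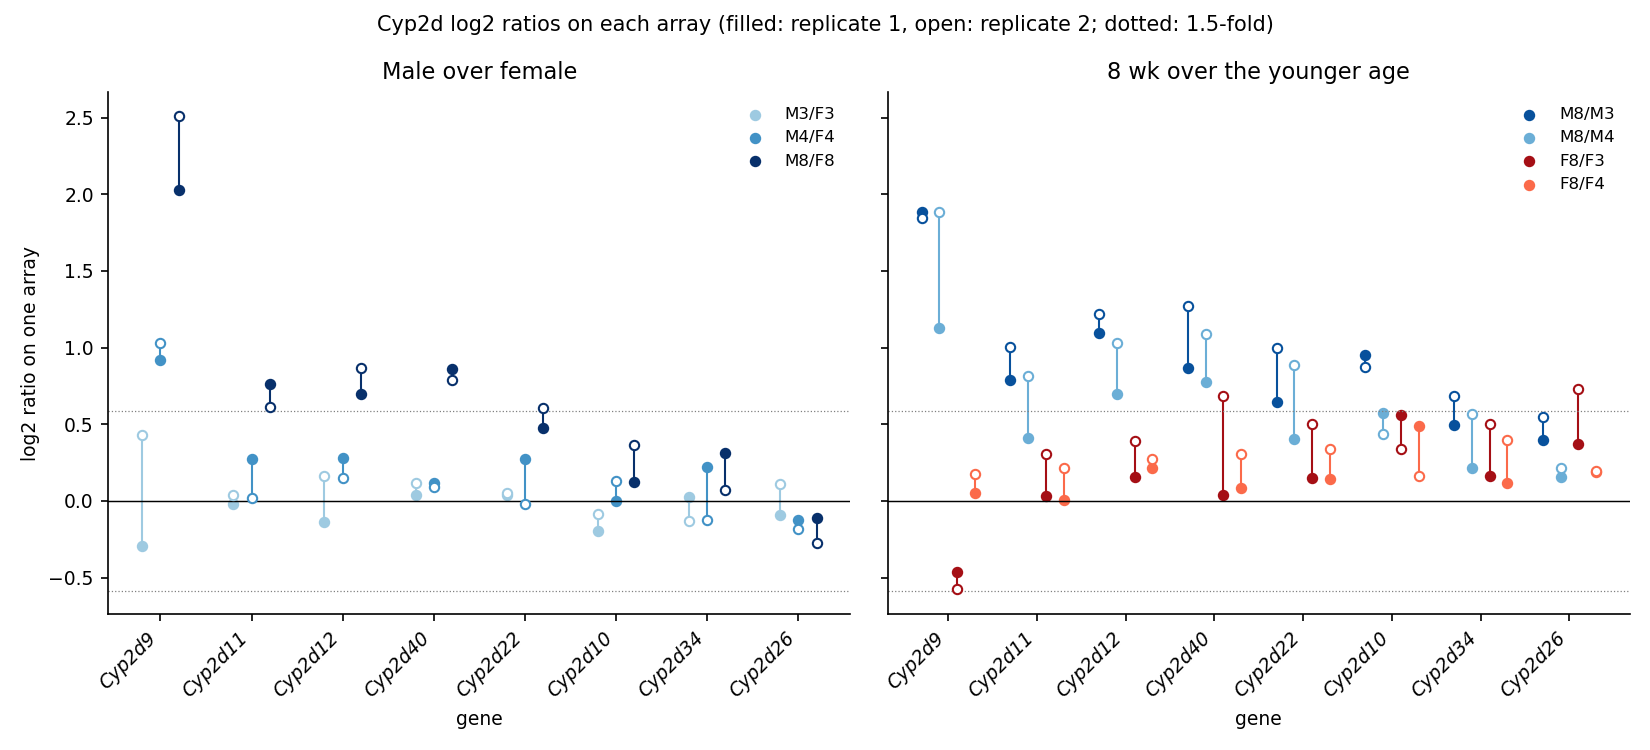
Log2 ratio of each Cyp2d gene on each array (y axis; filled points are replicate 1, open points replicate 2, joined by a line; dotted lines mark 1.5-fold). In M8/F8 both points of Cyp2d9 lie above 2 and those of Cyp2d26 below 0, and on the right the M8/M3 points of all 8 genes lie above 0 while those of Cyp2d9 in F8/F3 lie below it.

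The sexes were also compared at 3 and 4 wk, to date the onset of the difference. At 3 wk 0 of 8 members were called in M3/F3, where 0.517% of genes were called in either direction. Only Cyp2d10 had an unadjusted p under 0.05, a cut for which the share of all genes was not taken. Its log2 ratios were -0.20 and -0.09, slightly lower in male (adjusted p = 0.0977). The ratios of Cyp2d9 were -0.29 and 0.43, so the 2 arrays pointed in opposite directions with a wide interval (-0.46 to 0.59). The remaining 6 members had log2 ratios between -0.05 and 0.08.

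At 4 wk 1 of the 8 members was called in M4/F4 by its brightest probe, Cyp2d9, higher in male, where 0.619% of genes were called higher. The dimmer Cyp2d34 probe was also called higher (log2 1.47, adjusted p = 0.0218), as was the mean of both Cyp2d34 probes (0.76, adjusted p = 0.0254). The log2 ratios of Cyp2d9 were 0.92 and 1.03, close to each other and between those at 3 and 8 wk. The ratio was 1.97-fold (log2 0.98 ± 0.08, SD, n = 2, with SE 0.22, adjusted p = 0.0286). The size hardly depended on any one array, between 0.96 and 1.02 under the alternatives tried, but the call did. Without replicate 1 of M4/F4 the adjusted p was 0.153, and without replicate 2 it was 0.161. It lay between 0.0524 and 0.0578 without either replicate of M8/M3, F8/F3 or F8/F4. It was 0.0520 with shared pools in the model and 0.0511 with background-subtracted ratios. By their brightest probes the other members had log2 ratios between -0.15 and 0.22 in M4/F4. Cyp2d12 (0.28 and 0.15), Cyp2d11 (0.27 and 0.02) and Cyp2d40 (0.12 and 0.09) lay above 0 on both arrays without passing the test (adjusted p = 0.257, 0.237 and 0.723), and Cyp2d26 lay below 0 on both (-0.13 and -0.18, adjusted p = 0.305). Cyp2d22 (0.27 and -0.02), Cyp2d10 (-0.00 and 0.13) and the brighter Cyp2d34 probe (0.22 and -0.12) had arrays on either side of 0.

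Between 3 and 8 wk every member was higher at 8 wk in male liver on both arrays of M8/M3. All but Cyp2d26 were called, 7 of 8 against 7.84% of 14445 genes called higher. All 8 passed the adjusted p without the fold threshold, as did 21.7% of genes. The members' median log2 ratio was 0.90, with 0.01 for all genes tested.

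Cyp2d9 had M8/M3 log2 ratios of 1.88 and 1.84, a 3.64-fold rise (SE 0.22, adjusted p = 0.00242). Cyp2d12 had 1.10 and 1.22 (2.23-fold, adjusted p = 0.000934), and Cyp2d40 had 0.87 and 1.27 (2.10-fold, adjusted p = 0.00187). Both of these roughly doubled. Cyp2d10 had 0.95 and 0.88, a 1.89-fold rise with little spread (SE 0.05, adjusted p = 0.000147), although its sex ratio at 8 wk was small. Cyp2d11 had 0.79 and 1.00 (1.86-fold, adjusted p = 0.000495), and Cyp2d22 had 0.65 and 1.00 (1.77-fold, adjusted p = 0.00324). These rises were alike in size.

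The brighter Cyp2d34 probe had M8/M3 log2 ratios of 0.50 and 0.68, a 1.51-fold rise at the edge of the threshold (SE 0.04, adjusted p = 0.000397). The call was lost without replicate 1 of M8/M3 (log2 0.54). Cyp2d26 had 0.39 and 0.55, a 1.39-fold difference below the fold threshold (SE 0.08, adjusted p = 0.0109).

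From 4 to 8 wk, 5 members rose in male liver, Cyp2d9, Cyp2d11, Cyp2d12, Cyp2d22 and Cyp2d40, where 4.46% of 14935 genes were called higher. Without the fold threshold 7 passed, against 14.8% of genes, and Cyp2d26 did not (0.16 and 0.21, adjusted p = 0.212). Cyp2d10 (0.57 and 0.44, 1.42-fold, adjusted p = 0.000933) and the brighter Cyp2d34 probe (0.21 and 0.57, 1.31-fold, adjusted p = 0.00168) passed it below 1.5-fold. Cyp2d9 had M8/M4 log2 ratios of 1.13 and 1.88, the widest gap between arrays of any called member here, with a mean of 2.84-fold (adjusted p = 0.00552). Cyp2d40 had 0.77 and 1.09 (1.91-fold, adjusted p = 0.00317) and Cyp2d12 had 0.70 and 1.03 (1.82-fold, adjusted p = 0.00279). Replicate 2 lay above replicate 1 in all 5. Cyp2d22 (0.40 and 0.89; 1.56-fold, adjusted p = 0.00822) and Cyp2d11 (0.41 and 0.81; 1.53-fold, adjusted p = 0.00191) lost their calls without replicate 2 of M8/M4, at log2 0.49 and 0.50, which left 3 members called. With an error-weighted average built from the scanner's errors, at the study's p threshold, 2 members were called, Cyp2d12 and Cyp2d40. Cyp2d9 narrowly missed that threshold of 0.0001 with this average (log2 1.45, unadjusted p = 0.000109). The study's own error model was not rerun, so these need not be its calls.

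In female liver 0 of 8 members were called in F8/F3 and 0 of 8 in F8/F4, where 11.7% of 14745 genes and 6.02% of 14911 genes were called in either direction. The fold threshold decided this in part. Without it 3 members were higher at 8 wk in F8/F3 (17% of genes) and 2 in F8/F4 (10.6%). An unadjusted p under 0.05 was found for 7 and 2 members, and the share of all genes at that cut was not taken. Cyp2d26 had F8/F3 log2 ratios of 0.37 and 0.73, a 1.46-fold difference (SE 0.08, adjusted p = 0.00610), and passed the threshold without replicate 1 of F8/F3 (log2 0.71, adjusted p = 0.00962) but had log2 0.39 without replicate 2 (adjusted p = 0.0573). Cyp2d40 had log2 0.36 with both arrays, 0.61 without replicate 1 (past the threshold, adjusted p = 0.0373) and 0.12 without replicate 2 (adjusted p = 0.719). Cyp2d10 had 0.56 and 0.34 (1.36-fold, adjusted p = 0.00140) and the brighter Cyp2d34 probe had 0.16 and 0.50 (1.26-fold, adjusted p = 0.00316). Both were somewhat higher in adult female liver.

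Cyp2d9 had F8/F3 log2 ratios of -0.47 and -0.58, below 0 on both arrays, as were those of the dimmer Cyp2d34 probe (-0.79 and -1.06). The brightest probes of the other members had means above 0. The difference of Cyp2d9 did not pass the test (log2 -0.52, 95% interval -1.04 to 0.00, adjusted p = 0.188). In F8/F4 its ratios were 0.05 and 0.18. The 2 members that passed the adjusted p in F8/F4 were Cyp2d10 (0.49 and 0.16, 1.25-fold, adjusted p = 0.00470) and Cyp2d34 by its brighter probe (0.12 and 0.39, 1.19-fold, adjusted p = 0.00853). In F8/F4 the log2 ratios of Cyp2d11, Cyp2d12, Cyp2d22, Cyp2d26 and Cyp2d40 were 0.11, 0.24, 0.24, 0.19 and 0.19, above 0 on both arrays, with adjusted p of 0.193 to 0.388. Cyp2d11, Cyp2d12, Cyp2d22 and Cyp2d40, which had risen in male liver, had F8/F3 log2 ratios of 0.17, 0.27, 0.33 and 0.36, with adjusted p of 0.164, 0.151, 0.0924 and 0.0973.

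A difference in age change between the sexes was taken as M8/M3 minus F8/F3. The difference was called for Cyp2d9, Cyp2d11 and Cyp2d12, all larger in male, 3 of 8 against 1.64% of 14902 genes. It was 2.39 on the log2 scale for Cyp2d9 (SE 0.31, adjusted p = 0.0118), 0.89 for Cyp2d12 (SE 0.15, adjusted p = 0.0255) and 0.72 for Cyp2d11 (SE 0.10, adjusted p = 0.0122). Among the brightest probes the difference was largest for Cyp2d9, and the dimmer Cyp2d34 probe had 3.08. For Cyp2d40 it was 0.71 (adjusted p = 0.0712). It passed with normexp (0.72, adjusted p = 0.0477), and with 1 array left out it ranged from 0.46 without replicate 1 of F8/F3 to 0.95 without replicate 2. For Cyp2d22 it was 0.49 (adjusted p = 0.132) and for the brighter Cyp2d34 probe 0.26 (adjusted p = 0.0655). For Cyp2d10 it was 0.47 and passed the adjusted p (0.0139) without reaching 1.5-fold. Cyp2d26 had -0.08, with an interval from -0.35 to 0.20 that excludes a 1.5-fold difference in either direction.

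These 3 calls rested on all 4 arrays behind them. Without any one array of M8/M3 or F8/F3, 0 members were called, at an adjusted p of 0.0640 to 0.0686 for Cyp2d9, 0.0543 to 0.0758 for Cyp2d11 and 0.0767 to 0.135 for Cyp2d12, while the differences stayed between 2.36 and 2.41, 0.69 and 0.76, and 0.78 and 0.99. The call of Cyp2d11 was also lost with no dye term (adjusted p = 0.0731), with background-subtracted ratios (0.0532), with normexp (log2 0.58, under 1.5-fold) and with the error-weighted average. Cyp2d12 also lost its call without either replicate of M4/F4 (adjusted p = 0.0504) or F8/F4 (0.0528). The arrays of M8/M3 and of F8/F3 were scanned on different days, so this contrast also lies between scans and days. Arrays with one scan time were taken as one scan, and within a day each replicate number had its own scan. With a dye term for each scan day in the model the same 3 members were called. Each comparison holds both dye directions within 1 day, so this term cannot change the differences or remove a shift between days. The same quantity can be read within 1 scan day and the same scans from the sex arrays, as M8/F8 minus M3/F3. It was 2.20 for Cyp2d9, 0.77 for Cyp2d12, 0.68 for Cyp2d11 and -0.20 for Cyp2d26.

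From 4 to 8 wk (M8/M4 minus F8/F4) 0 of 8 members were called in limma, against 1.33% of 15164 genes. Unadjusted p was under 0.05 for 6 members, a cut with no share of all genes beside it. Cyp2d9 had the largest difference among the brightest probes, 1.39 (SE 0.31, adjusted p = 0.102), and the dimmer Cyp2d34 probe had 1.73 (SE 0.44, adjusted p = 0.141). That of Cyp2d9 was 1.88 without replicate 1 of M8/M4 and passed (adjusted p = 0.0394), and 0.90 without replicate 2 (adjusted p = 0.294). The difference was 0.74 for Cyp2d40, 0.62 for Cyp2d12, 0.50 for Cyp2d11, 0.40 for Cyp2d22, 0.18 for Cyp2d10, 0.14 for the brighter Cyp2d34 probe and -0.01 for Cyp2d26. Between 3 and 4 wk, read through the 8 wk groups, 0 members were called in male (M4/M3; 0.292% of 15063 genes) or in female liver (F4/F3; 0.0931% of 15042). Here too without a share of all genes, unadjusted p was under 0.05 for 4 members in male and 1 in female. The M4/M3 differences of all 8 members lay above 0, from 0.14 to 0.41, the largest for Cyp2d10 (adjusted p = 0.0671). Without replicate 1 of M8/M4 that of Cyp2d9 turned to -0.13, and with 1 array left out it reached 0.85. The male contrast lies between scan days and the female one within a day. In female liver Cyp2d9 had -0.64 (adjusted p = 0.574).

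**Figure D3:**
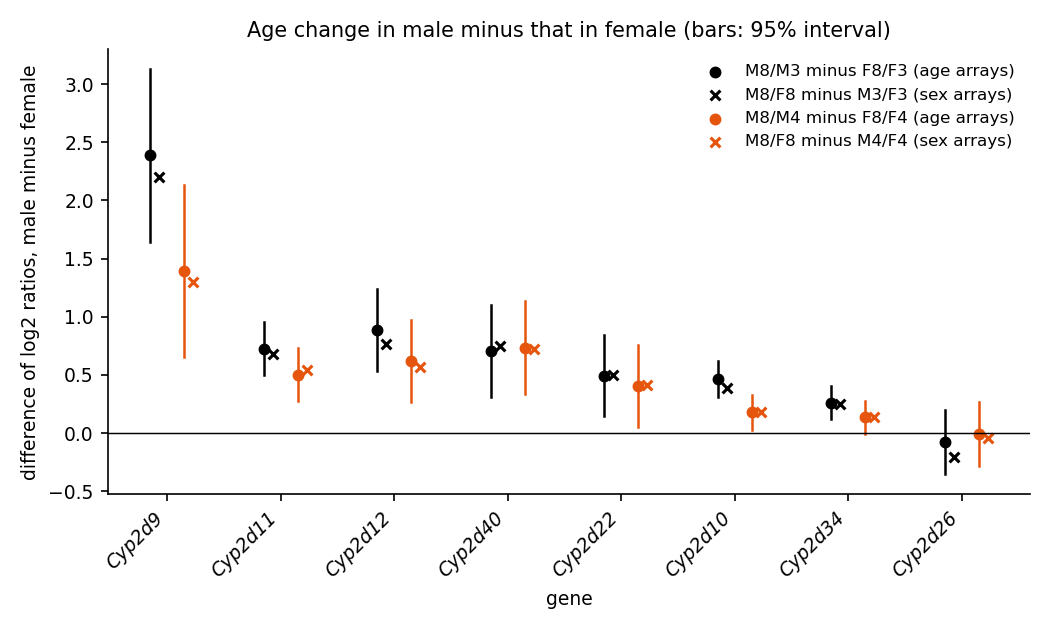
Age change in male minus age change in female for each Cyp2d gene (y axis, difference of log2 ratios), from 3 to 8 wk (black) and from 4 to 8 wk (orange); points with 95% intervals come from the age arrays, crosses from the sex arrays (M8/F8 minus M3/F3 or M4/F4). Among the brightest probes Cyp2d9 stands highest at 2.39 from 3 to 8 wk, and the interval of Cyp2d26 spans 0.

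The ratios of each replicate number were also combined into a relative level of the 6 groups, on the log2 scale around the mean of the groups. The comparisons close into loops, so each replicate gave 1 level per group, and levels are not comparable between genes. The highest group by mean level was F8 for Cyp2d26 and M8 for each of the other members. Levels were computed for the members alone, so how many of all genes share this order is not known.

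For Cyp2d9 the levels of replicates 1 and 2 were 1.45 and 1.87 in M8, 0.31 and 0.02 in M4, -0.43 and 0.10 in M3, -0.12 and -0.25 in F3, -0.58 and -0.76 in F8, and -0.62 and -0.97 in F4. M8 stood apart, the values of M4, M3 and F3 ran into each other, and F8 and F4 overlapped below them. For Cyp2d26 they were 0.24 and 0.39 in F8, 0.13 and 0.17 in M8, 0.07 and 0.18 in F4, -0.04 and -0.02 in M4, -0.14 and -0.39 in F3, and -0.25 and -0.33 in M3. F8 lay above M8 on both replicates, M8 and F4 overlapped, and the 3 wk groups overlapped at the bottom. For Cyp2d12 the male levels were 0.73 and 0.94 in M8, 0.04 and -0.09 in M4 and -0.35 and -0.25 in M3, and the female levels were -0.00 and 0.04 in F8, -0.23 and -0.24 in F4 and -0.19 and -0.39 in F3. F8 of Cyp2d12 overlapped M4, and F3 overlapped both F4 and M3, while F4 lay just above M3.

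For Cyp2d40 the levels were 0.72 and 0.95 in M8, -0.07 and -0.11 in M4, -0.14 and -0.35 in M3, -0.13 and 0.16 in F8, -0.20 and -0.17 in F4, and -0.18 and -0.49 in F3. Below M8, F8 overlapped M4, and M3, F4 and F3 overlapped each other. For Cyp2d11 they were 0.58 and 0.71 in M8, 0.14 and -0.11 in M4, -0.21 and -0.26 in M3, -0.16 and 0.07 in F8, -0.15 and -0.14 in F4, and -0.20 and -0.27 in F3. Here too M4 and F8 overlapped, and the values of M3 and F3 overlapped. For Cyp2d22 they were 0.47 and 0.74 in M8, 0.08 and -0.16 in M4, -0.16 and -0.27 in M3, -0.02 and 0.17 in F8, -0.18 and -0.16 in F4, and -0.19 and -0.33 in F3. The order of its group means was that of Cyp2d40, with F8 next after M8.

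For Cyp2d10 the levels were 0.49 and 0.50 in M8, -0.09 and 0.06 in M4, -0.44 and -0.36 in M3, 0.37 and 0.11 in F8, -0.11 and -0.06 in F4, and -0.22 and -0.25 in F3. Both 8 wk groups lay at the top, M4 and F4 overlapped, and F3 lay above M3. The brighter Cyp2d34 probe had 0.33 and 0.39 in M8, 0.11 and -0.18 in M4, -0.16 and -0.30 in M3, 0.00 and 0.33 in F8, -0.11 and -0.06 in F4, and -0.17 and -0.17 in F3. M8 cleared F8 by a narrow margin, and the M4 values spanned those of F4 and F3.

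**Figure D4:**
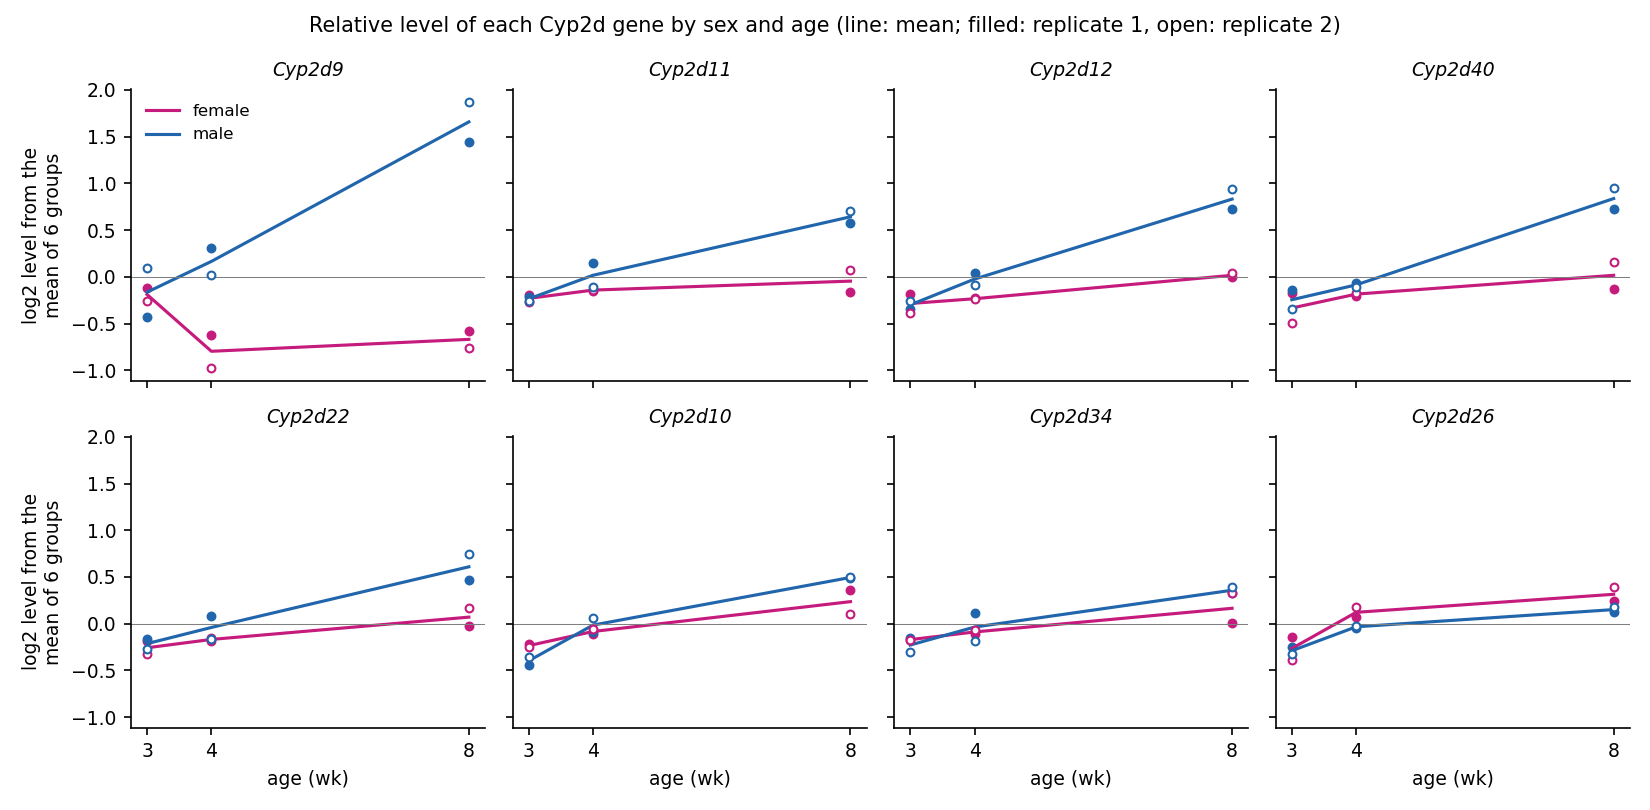
Relative log2 level of each Cyp2d gene (y axis, centred on the mean of the 6 groups) by age in wk (x axis) in female (pink) and male (blue) liver; lines join the means of 2 replicates, filled points are replicate 1 and open points replicate 2. The male line rises steeply to 8 wk for Cyp2d9, whose female line falls from 3 to 4 wk, and the female line lies above the male one at 8 wk only for Cyp2d26.

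The 2 probes of Cyp2d34 gave different answers. The brighter, A_51_P217395, had processed signals of 2170 to 13462 and the dimmer, A_55_P2041350, of 164 to 3222. The dimmer probe had M8/F8 log2 ratios of 2.67 and 3.61, against 0.32 and 0.07 of the brighter. Its ratio was 8.79-fold higher in male (SE 0.31, adjusted p = 0.00123), beyond that of Cyp2d9. In M4/F4 it had 1.26 and 1.68 (2.77-fold, adjusted p = 0.0218) and in M8/M3 2.26 and 2.06 (4.47-fold, adjusted p = 0.00500). In F8/F3 its ratios of -0.79 and -1.06 were below 0, where those of the brighter probe were above it (adjusted p = 0.106). Its interaction M8/M3 minus F8/F3 was 3.08 (adjusted p = 0.0146).

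Across the 14 arrays the ratios of the dimmer probe followed those of the Cyp2d9 probe (r = 0.99, with the same sign on 13 arrays) and had little relation to those of the other Cyp2d34 probe (r = 0.15). This is a description over arrays that appear to share pools. The opposite signs of M3/F3 for Cyp2d9 recurred on the dimmer probe, at -0.37 and 0.54. Duplicated genes of a cluster may share a probe's target, and the bases of the probes were not used here, so which transcripts each of the 9 probes captures was not tested. With the dimmer probe in place of the brighter, 2 members were called in M4/F4, 5 in M8/F8, 6 in M8/M4 and 4 in the test of M8/M3 minus F8/F3.

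**Figure D5:**
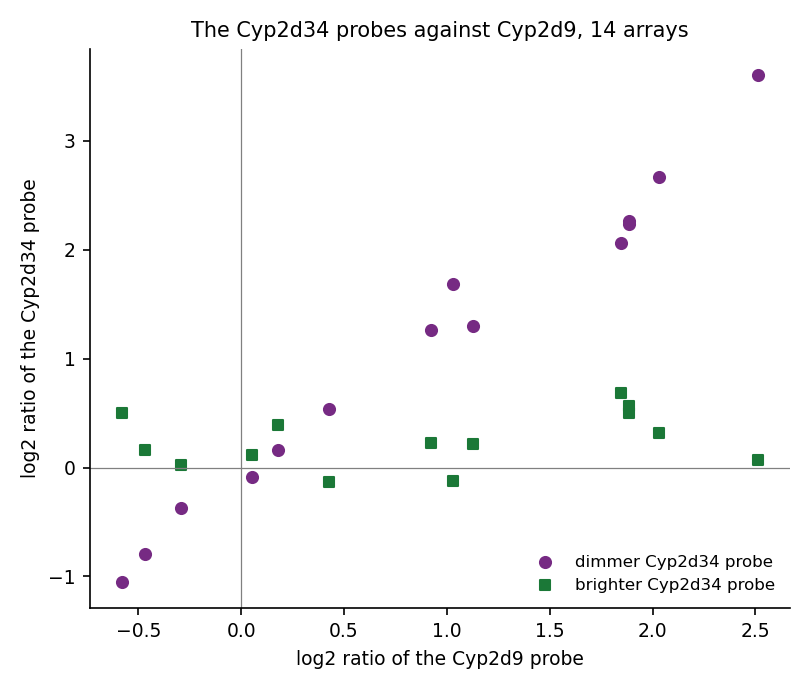
Log2 ratios of the dimmer (purple circles) and brighter (green squares) Cyp2d34 probes (y axis) against the Cyp2d9 probe (x axis), 1 point per array and probe on 14 arrays. The circles lie along a rising line (r = 0.99) and the squares stay between -0.13 and 0.68 (r = 0.15).

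Among themselves, the oriented ratios of Cyp2d11, Cyp2d12, Cyp2d22 and Cyp2d40 correlated at r = 0.93 to 0.96 over the 14 arrays, which appear to share pools. Cyp2d9 correlated with Cyp2d12 at 0.81, with Cyp2d10 at 0.34 and with Cyp2d26 at -0.32. Outside the family, the 3 genes most like Cyp2d9 among 12295 were Nat8 (r = 0.98), Lama3 (0.98) and Abcb10 (0.98), with M8/F8 log2 ratios of 3.05, 3.71 and 0.86. Those most like Cyp2d26 were Ugt3a2 (0.97), Sult1b1 (0.96) and Slc3a1 (0.96), all with M8/F8 ratios below 0 and M8/M3 and F8/F3 ratios above it. Ugt3a2 and Sult1b1 encode conjugating enzymes. For Cyp2d12 they were Mrgpre (0.97), Socs7 (0.97) and Ranbp9 (0.97), and Olfr1384 was among the 3 most like for each of Cyp2d11, Cyp2d22 and Cyp2d40.

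Of the genes around the members, the transcribed pseudogene Cyp2d13 rose with age in both sexes, at 0.67 and 0.88 in M8/M3 (1.72-fold, adjusted p = 0.00130) and 0.63 and 0.68 in F8/F3 (1.57-fold, adjusted p = 0.00255), with an M8/F8 log2 ratio of 0.19 (adjusted p = 0.176). Among 69 other P450 genes tested in M8/F8, 9 were higher and 24 lower in male liver, while 16 were higher and 18 lower in M8/M3 and, of 71 in F8/F3, 16 were higher and 1 lower.

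Of the 6 electron donors and haem partners of P450s measured, Por, the reductase that serves these enzymes, was lower in male at 8 wk (-1.38 and -0.50; log2 -0.94, SE 0.18, adjusted p = 0.0148). The 2 arrays differed in size but not in direction. Pgrmc1 rose in both sexes (M8/M3 log2 0.87, adjusted p = 0.000358; F8/F3 0.69, adjusted p = 0.000759). Among 15 published regulators of Cyp2d or sex-biased P450 genes, 1 was called in M8/F8, the female-specific repressor Cux2, lower in male (adjusted p = 0.000118). Its probe was well above background in M8 on 1 of the 2 arrays, so the size of the difference is not given. Cux2 was also lower in male in M4/F4 (log2 -3.07, adjusted p = 0.000447) and higher at 8 wk in F8/F3 (2.20, adjusted p = 0.00144), where both groups were well above background. In M8/M3 Klf9 (log2 1.00, adjusted p = 0.000513; F8/F3 0.57, adjusted p = 0.00417, under 1.5-fold) and Cebpb (1.12, adjusted p = 0.00455; F8/F3 0.41, adjusted p = 0.145) rose. Cebpb was also called lower in male at 3 wk (M3/F3 log2 -0.60, adjusted p = 0.0463). Cux2 was lower in M8 (adjusted p = 0.000419), where its probe was well above background on 0 of 2 arrays. Hnf4a was not called in any comparison, with log2 ratios of 0.03 in M8/F8, 0.16 in M8/M3 and 0.01 in F8/F3. Nr0b2 was higher in male at 8 wk below 1.5-fold (M8/F8 log2 0.40, adjusted p = 0.00820).

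Markers of other liver cells moved beside these results. In M8/F8 3 of 4 measured Kupffer cell markers were lower in male, with a median log2 ratio of -0.62 and a summed signal of 9688 to 14924 in M8 against 16201 to 24166 in F8. From 3 to 8 wk all 4 proliferation markers fell in both sexes (median log2 ratio -3.53 in M8/M3 and -3.15 in F8/F3), as did 2 of 3 erythroid markers, while 1 rose in male. Of the lists tested in M8/F8, 1 of 4 lymphocyte and 1 of 4 proliferation markers were lower, 1 of 2 erythroid markers was higher, and 0 of 6 hepatocyte, 0 of 5 endothelial, 0 of 5 bile duct and 0 of 3 stellate or fibroblast markers were called. Without the fold threshold 4 of the 6 hepatocyte markers passed the adjusted p lower in male (median of the 6 -0.41), Alb at -0.57 (-0.01 and -1.13 on the 2 arrays), Cps1 at -0.52, Ass1 at -0.41 and Tat at -0.41. In M8/M3 1 of 6 hepatocyte, 2 of 4 Kupffer cell (median log2 ratio -0.65), 2 of 5 bile duct (-0.61), 2 of 5 lymphocyte, 1 of 5 endothelial and 1 of 4 stellate or fibroblast markers were also lower. In M8/M4 all 4 proliferation markers (median log2 ratio -2.88), 2 of 4 Kupffer cell markers (-0.72, with 4 of 4 lower without the fold threshold) and 2 of 3 erythroid markers were lower and 1 erythroid marker was higher, while 1 of 6 hepatocyte, 1 of 5 lymphocyte, 1 of 5 endothelial, 1 of 5 bile duct and 1 of 4 stellate or fibroblast markers were lower. Also lower in F8/F3 were 1 Kupffer cell, 1 endothelial, 1 bile duct and 1 stellate or fibroblast marker. The difference M8/M3 minus F8/F3 was called for 1 of 3 erythroid markers, larger in male. In M4/F4 1 of 4 Kupffer cell markers was lower, and 1 of 3 erythroid and 1 of 5 bile duct markers were higher. Without the fold threshold 2 of 6 hepatocyte markers were lower in M4/F4. The part of these shifts in the Cyp2d ratios was not tested.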

How the data were processed

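Liver RNA pools of CD-1 mice were hybridized to 14 arrays. The deposited scanner files hold, per spot, red and green signal intensity and the log10 ratio of red over green with its log10 error, which the authors obtained with Agilent Feature Extraction after subtracting background and normalizing the dyes (linear and LOWESS). The deposited series table gives the same log10 ratios (largest difference 0). Ratios were turned by dye to male over female or 8 wk over the younger age and converted to log2. Spots of 1 probe were averaged, and non-uniform spots (0 to 10 per array) left out. Probes were named through RefSeq accessions (26055 of 39429). A gene was represented by its brightest probe.

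The model in limma 3.58.1 (R 4.3.3) had 7 comparison terms and 1 dye term for each probe, with 6 residual degrees of freedom. Benjamini-Hochberg adjustment took all probes of the 7 comparisons together, and all probes of each contrast alone. Replicate 1 always carried the group first named in the sample title in red, so the dye term is also the replicate block. Pools appear to recur between comparisons, which the labels do not state: replicate differences correlated around the 3 wk loop (r = 0.91) and the 4 wk loop (r = 0.90) over 20451 probes. The number of arrays limits the precision. The fit was also run on simulated data as a check of the code, and no result here rests on that run.

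Alternatives were no dye term, a dye term per scan day, shared pools in the covariance and background-subtracted signals without loess. Normexp (offset 50) with loess was run on spot medians, as mean signals were not used here. Others were different background and fold requirements, the mean over probes, and each array left out. An error-weighted average used the scanner's errors and the study's p threshold (unadjusted p below 0.0001), without the study's error model. The use of the dimmer Cyp2d34 probe was added after seeing the data. The members, gene lists and cell markers were chosen with earlier results of these data known. The rule for named genes took all 8 members in every comparison, given by a range at 3 wk and between 3 and 4 wk where not called, and for likeness the 3 genes with the highest Pearson r to a member, of which some are printed. No mouse genome of the array's build (mm9), transcripts or proteins were used here.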

Additional observations from a re-analysis of the deposited data

Results flagged for a closer look

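The change from 3 to 8 wk differed between male and female liver (M8/M3 minus F8/F3, log2 scale, in limma) by 2.39 for Cyp2d9, 0.89 for Cyp2d12 and 0.72 for Cyp2d11, each larger in male. For the dimmer Cyp2d34 probe, A_55_P2041350, the difference was 3.08. All 4 passed the test of the difference itself. The calls of Cyp2d9, Cyp2d11 and Cyp2d12 were each lost without any one array of M8/M3 or F8/F3, at an adjusted p of 0.0640 to 0.0686, 0.0543 to 0.0758 and 0.0767 to 0.135, and that of Cyp2d11 also with no dye term (0.0731). Groups of 2 arrays were too small to test for outlying samples.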

How the results depend on the processing

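Each value was recomputed under 25 alternatives. Of the 20 calls of members, 11 held under all of them, 9 were lost under at least 1, and none changed direction. With no replicate block (no dye term, and so no pairing of arrays by dye), 1 member was called in M4/F4, 4 in M8/F8, 7 in M8/M3, 5 in M8/M4 and 2 in the 3 to 8 wk interaction, which Cyp2d11 left (adjusted p = 0.0731).

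In M4/F4 the members called were 0 with shared pools in the covariance or with background-subtracted, median-centred ratios, and 2 with the mean over all probes of a gene or the dimmer Cyp2d34 probe. Without the fold threshold they were 7 in M8/F8, 3 in F8/F3 and 2 in F8/F4. In F8/F3 normexp with loess and background-subtracted ratios each called 1, Cyp2d26. The error-weighted average called 2 in M8/M4. With 1 array left out, a lone array being assumed to vary like the others, the counts ranged from 0 to 1 in M4/F4, 3 to 5 in M8/M4, 0 to 2 in F8/F3, 0 to 3 in the 3 to 8 wk interaction and 0 to 1 in the 4 to 8 wk one.

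Values that changed sign had not been called. With background-subtracted ratios these were M3/F3 of Cyp2d11 (-0.0133), Cyp2d12 (-0.0321) and Cyp2d26 (-0.0217) and the 4 to 8 wk interaction of Cyp2d26 (0.0062), and with normexp M3/F3 of Cyp2d12 (-0.0040). For Cyp2d34 they were M3/F3 (0.0149 with the mean over probes, 0.0834 with the dimmer probe), F8/F3 (-0.30 and -0.92) and F4/F3 (-0.44 and -0.96). With 1 array left out, M3/F3 ranged from -0.31 to 0.44 for Cyp2d9, -0.14 to 0.16 for Cyp2d11, -0.20 to 0.22 for Cyp2d12, -0.091 to 0.18 for Cyp2d22, -0.16 to 0.17 for Cyp2d26, -0.12 to 0.013 for Cyp2d34 and -0.10 to 0.26 for Cyp2d40. Cyp2d9 ranged from -0.0078 to 0.24 in F8/F4 and -0.13 to 0.85 in M4/M3, Cyp2d12 from -0.072 to 0.13 in F4/F3, and Cyp2d40 from -0.011 to 0.22 in M4/F4 and -0.075 to 0.41 in F4/F3. The interactions of Cyp2d26 ranged from -0.24 to 0.084 (3 to 8 wk) and -0.054 to 0.038 (4 to 8 wk). The cause was not tested beyond the choice of probe.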
